A study of Mus musculus with 12 samples.

Results

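The Arp2/3 complex is the cell's nucleator of branched actin filaments. It was followed here through the mRNA of all 10 mouse genes that encode its subunits and subunit paralogs: Actr2, Actr3, Actr3b, Arpc1a, Arpc1b, Arpc2, Arpc3, Arpc4, Arpc5 and Arpc5l. They were taken as the rows of the expression table whose Entrez gene ID maps to these symbols, so 10 of 27179 genes in the table. Of the 10, 9 passed the filter on low values (a normalized count of at least 10 in at least 3 libraries, met by 13939 genes), and Actr3b did not.

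The libraries came from mIMCD3 cells, an established line from the inner medullary collecting duct of mouse kidney. There were 4 groups of 3 libraries. The first, called Actr3 KO, was the line labelled Actr3 KO-1. The second, called dKO, was a line whose label names both Actr3 and Ift88 as knocked out. Ift88 encodes a subunit of the particles that carry cargo along cilia. The third was the Actr3 KO-1 line given 0.5 µM ciliobrevin D (CB), an inhibitor of the dynein motors. The fourth was the control. Of its 3 libraries, 2 are headed as control line 1, while the column of the third is headed as control line 2, a number that no sample title carries; its values stand last wherever control libraries are listed. Cells of all groups stood at confluence for 48 h in medium with 10% FCS and were then kept without FCS for 24 h, in which CB or its solvent was present. Each edited genotype was 1 line, so an effect of the edit and a difference between lines cannot be told apart. The labels do not say that replicates were separate cultures, so the p-values measure the spread between these libraries, which may be technical. Libraries held 28902562 to 38077987 reads. In bulk RNA, fewer cells of a type and less RNA per cell cannot be told apart.

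The complex joins a pair of actin-related proteins, ARP2 and ARP3, to smaller ARPC subunits that hold the pair and bind the side of an existing filament. When a nucleation-promoting factor such as N-WASP or a WAVE protein engages it, ARP2 and ARP3 act as the first subunits of a new filament, which grows as a branch. In epithelial cells these branched networks drive lamellipodia, shape the cortex at cell junctions and move endosomes. The subunits with paralogs (ARP3, ARPC1 and ARPC5) allow complexes of different composition.

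The 10 genes lie on 5 autosomes of GRCm38 (RefSeq annotation), with 3 on chromosome 1 and 4 on chromosome 5. Arpc2 is at chr1:74236490-74268209, Actr3 at chr1:125392905-125435727 and Arpc5 at chr1:152766542-152775580. Actr3b is at chr5:25759941-25850691 and Arpc3 at chr5:122391878-122406181. The paralogs Arpc1a at chr5:145083869-145108756 and Arpc1b at chr5:145114256-145128186 are neighbours, with 5499 bases between them. Arpc5l is at chr2:39008066-39015878, Arpc4 at chr6:113378113-113390447 and Actr2 at chr11:20062304-20112951.

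RefSeq promoter windows (250 bases before to 50 after the annotated start, GRCm38.p6) matched 8 of the 10 genes, all but Actr3b and Arpc5l. The 250 bases upstream of 4 of them are printed because each of the 4 genes has the ETS-type letters in its window, and because they are the edited gene, its actin-related partner, and the genes with the largest and smallest mRNA difference between Actr3 KO and control among the unedited subunits. Each runs 5′ to 3′ on the gene's strand and ends at the base before the start that RefSeq gives. Capitals mark matches to the ETS-type letters CCGGAAG, the GC box GGGCGG or the CCAAT box, on either strand. Actr3 is chr1:125435728-125435977 (minus strand), Actr2 chr11:20112952-20113201 (minus strand), Arpc3 chr5:122391628-122391877 (plus strand) and Arpc1a chr5:145083619-145083868 (plus strand).
Actr3: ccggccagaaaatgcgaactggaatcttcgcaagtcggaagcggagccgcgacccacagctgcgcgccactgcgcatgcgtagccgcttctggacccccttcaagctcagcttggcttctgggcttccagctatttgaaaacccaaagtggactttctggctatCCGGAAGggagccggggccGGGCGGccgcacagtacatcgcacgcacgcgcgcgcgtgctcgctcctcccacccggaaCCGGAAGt
Actr2: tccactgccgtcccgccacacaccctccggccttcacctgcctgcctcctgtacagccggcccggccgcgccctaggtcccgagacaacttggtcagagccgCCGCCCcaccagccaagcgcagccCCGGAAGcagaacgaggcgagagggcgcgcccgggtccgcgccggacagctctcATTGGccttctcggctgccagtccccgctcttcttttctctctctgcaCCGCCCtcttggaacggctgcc
Arpc3: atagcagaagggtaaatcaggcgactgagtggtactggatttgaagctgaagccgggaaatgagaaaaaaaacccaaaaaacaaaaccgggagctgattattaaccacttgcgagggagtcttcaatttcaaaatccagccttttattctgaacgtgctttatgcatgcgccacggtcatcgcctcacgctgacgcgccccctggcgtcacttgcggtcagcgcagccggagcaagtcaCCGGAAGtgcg
Arpc1a: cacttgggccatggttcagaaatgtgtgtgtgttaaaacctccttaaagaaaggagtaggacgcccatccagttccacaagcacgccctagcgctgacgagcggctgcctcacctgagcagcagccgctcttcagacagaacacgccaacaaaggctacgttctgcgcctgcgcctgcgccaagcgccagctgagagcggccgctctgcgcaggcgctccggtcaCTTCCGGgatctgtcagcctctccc

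The letters CCGGAAG were found in the windows of 5 of the 8 genes (Actr2, Actr3, Arpc1a, Arpc3 and Arpc4), against 8.86% of 32851 RefSeq promoter windows of the same length. On the gene's strand they occurred in Actr3 at positions -86 to -80 and -8 to -2 from the start. Arpc3 had them on that strand at -11 to -5, Arpc4 at -12 to -6 and Actr2 at -124 to -118. On the opposite strand they occurred in Arpc1a at -25 to -19. Arpc3 also had them on the opposite strand, 20 to 26 bases after the start base, and Actr2 at 9 to 15 bases after it. GGGCGG was present in 6 of the 8 windows, against 35.7% of all. CCAAT was present in 2 (Actr2 and Arpc5), against 37.4% of all. The palindromic NRF1 motif was present in 1 (Arpc2), against 0.971%. The CArG box, the motif of serum response factor, was present in 1 (Arpc4, at the far end of the window), against 1.63%. TATAAA and TGANTCA, the TATA box and the AP-1 motif, had no match, against 13.6% and 7.81% of all windows. Motifs that overlap were counted for each. The 8 upstream stretches held 51.2% (Arpc3) to 74.4% (Arpc5) G and C, against a median of 52.4% over the same stretch of all windows. Only Arpc3 was below that median, and the share of motif matches was not adjusted for G and C. These matches describe letters and say nothing of which factors bind.

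Levels of the genes can be set against each other only per length. Divided by the merged length of the exons in the GENCODE basic set, control libraries gave 5640.4 normalized counts per kb for Arpc2, 4697 for Arpc3, 3153 for Actr3, 2805 for Arpc1b, 2622 for Actr2, 1816 for Arpc1a, 1812 for Arpc5l, 1327 for Arpc4, 1108 for Arpc5 and 0.849 for Actr3b. In this order the libraries of neighbours overlapped for Arpc1a and Arpc5l and for no other pair. With the full GENCODE exon set the order of the middle genes changed, while Arpc2 stayed first and Actr3b last. Actr3 thus ranked 3 of 10 per kb in control (4 with the full set), and 9 in Actr3 KO, dKO and Actr3 KO with CB by both sets.

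Actr3 encodes ARP3, and its mRNA was the first check of the labels. Actr3 had 1347, 1145 and 1163 normalized counts in Actr3 KO, 870.0, 833 and 911 in dKO and 1400, 1562 and 1759 in Actr3 KO with CB, against 8101, 8243 and 8664 in control. Every library of the edited lines was below every control library. The means were 14.6%, 10.5% and 18.9% of the control mean in Actr3 KO, dKO and Actr3 KO with CB. The log2 fold change against control was -2.78 ± 0.07 in Actr3 KO, -3.26 ± 0.07 in dKO and -2.41 ± 0.07 in Actr3 KO with CB (limma, SE, n = 3 each, adjusted p = 4.48e-17, 5.27e-19 and 3.59e-16). Actr3 also differed between the edited groups. It was lower in dKO than in Actr3 KO (log2 fold change -0.48 ± 0.07, adjusted p = 6.88e-06) and higher in Actr3 KO with CB than in Actr3 KO (0.37 ± 0.07, adjusted p = 0.000174). The sources used here do not state where in the gene the edits lie. The processed pseudogene Gm8822 is 98.8% identical to Actr3 transcripts over 2348 bases, so reads of Actr3 at these low levels are uncertain.

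Ift88 did not set the libraries labelled dKO apart. It averaged 604 ± 29.8 normalized counts in dKO and 617 ± 34.2 in Actr3 KO (SD, n = 3 each), with a log2 fold change of -0.03 ± 0.07 (limma adjusted p = 0.725). Ift88 averaged 438 ± 4.29 in Actr3 KO with CB and 457 ± 14.9 in control. Against control it was higher in Actr3 KO (0.43 ± 0.07, limma adjusted p = 1.50e-05) and also in dKO (0.40 ± 0.07, 3.94e-05). In Actr3 KO with CB the difference from control was -0.06 ± 0.07 (limma adjusted p = 0.486). The dKO results below therefore rest on the label for the second edit, since a gene's read count does not show an edit that leaves its transcript in place.

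In Actr3 KO, low Actr3 mRNA came with lower mRNA of every other subunit above the filter. That did not hold in dKO or in Actr3 KO with CB, where Actr3 was also low (below). In Actr3 KO against control, all 9 subunits tested were called lower and 0 higher at a limma Benjamini-Hochberg adjusted p under 0.05. This has to be read against a wide background. Of all tested genes, 69.8% were called in this comparison, 35.4% of them lower than control and 34.4% higher, each as a share of genes tested. The median log2 fold change of the 8 subunits without Actr3 was -0.63, against 0.00 over all tested genes. The 8 spanned -1.03 to -0.35, and the quartiles of all tested genes were -0.39 and 0.39. All but Arpc1a lay below the lower quartile.

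**Figure D1:**
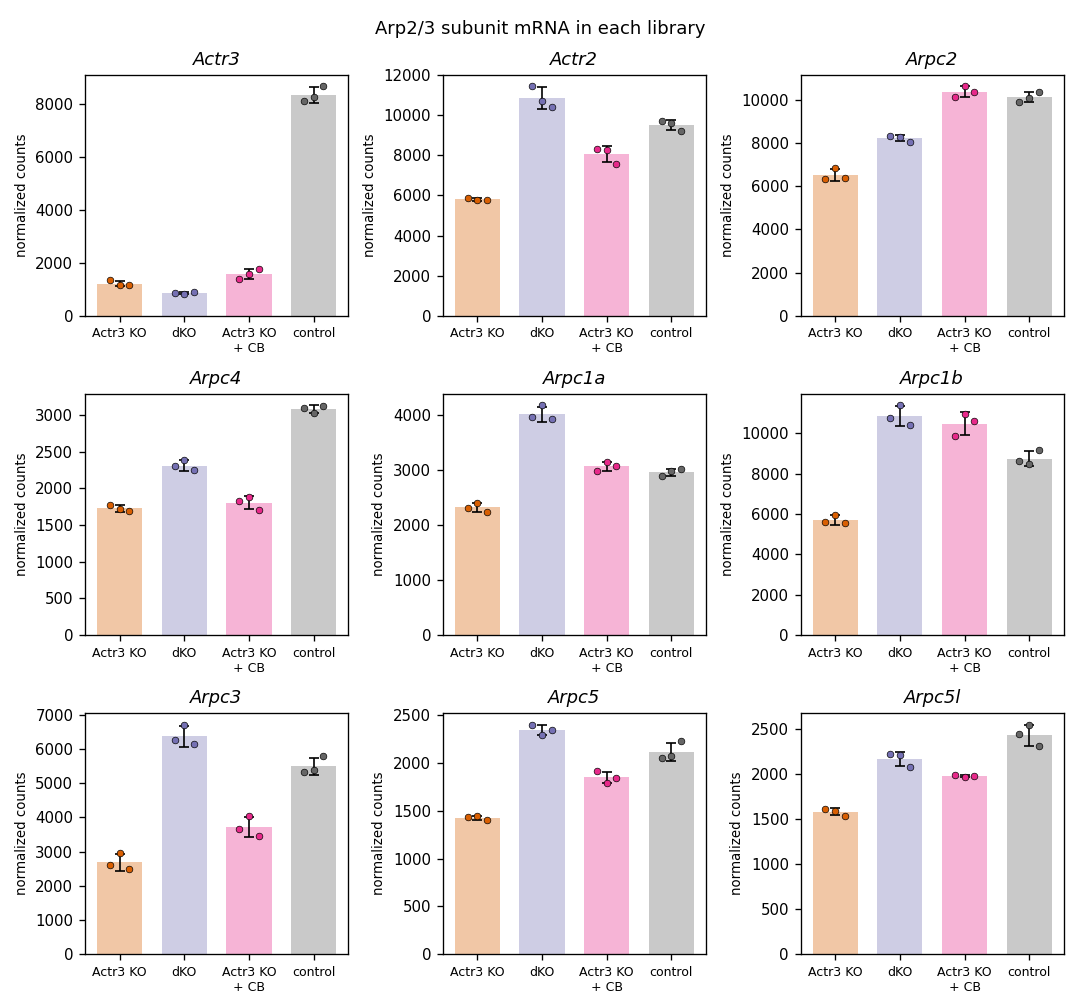
Normalized counts of the 9 subunits above the filter in each library (points), with the group mean (bars, from 0) and SD (error bars, n = 3), for Actr3 KO, dKO, Actr3 KO with CB and control. Actr3 stayed between 833 and 1759 in the edited groups against at least 8101 in control, while the other 8 subunits were lowest in Actr3 KO, apart from Arpc4, whose libraries in Actr3 KO with CB overlapped those of Actr3 KO.

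Actr2 encodes ARP2, the other actin-related subunit. It had 5869, 5752 and 5784 normalized counts in Actr3 KO, 11445, 10704 and 10399 in dKO and 8302, 8277 and 7590.1 in Actr3 KO with CB, against 9699.6, 9631 and 9236 in control. The 4 groups did not overlap, with Actr3 KO lowest and dKO highest. Actr2 was lower in Actr3 KO than in control (log2 fold change -0.71 ± 0.05, limma adjusted p = 1.38e-10) and higher in dKO than in Actr3 KO (0.90 ± 0.05, adjusted p = 4.33e-12). With CB it lay between Actr3 KO and control (0.47 ± 0.05 against Actr3 KO, adjusted p = 9.35e-08). The processed pseudogene Gm6828 is 94.1% identical to Actr2 over 1189 bases.

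Arpc2 and Arpc4 encode the subunits that form the structural core of the complex and contact the mother filament. Arpc2 had 6319, 6848 and 6404 normalized counts in Actr3 KO, 8350.4, 8303 and 8060.1 in dKO and 10150.4, 10635 and 10379 in Actr3 KO with CB, against 9904, 10089 and 10364 in control. The Actr3 KO libraries were lowest, dKO came next, and the libraries with CB overlapped control. Arpc2 was called lower in Actr3 KO than in control (-0.63 ± 0.05, limma adjusted p = 3.32e-10). In Actr3 KO with CB the log2 difference from control was 0.04, with an interval of -0.07 to 0.14 (adjusted p = 0.517).

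Arpc4 had 1780, 1715 and 1692 normalized counts in Actr3 KO, 2301, 2387 and 2246 in dKO and 1834, 1876 and 1703 in Actr3 KO with CB, against 3093, 3025 and 3124 in control. It was the subunit whose libraries with CB overlapped those of Actr3 KO. Arpc4 was lower in Actr3 KO than in control (-0.83 ± 0.05, limma adjusted p = 1.01e-11) and higher in dKO than in Actr3 KO (0.42 ± 0.05, adjusted p = 3.89e-07). The log2 difference of Actr3 KO with CB from Actr3 KO was 0.06, with an interval of -0.05 to 0.17 (adjusted p = 0.313). Arpc4 overlaps Ttll3 on the same strand over 1189 bases. Ttll3 had 253 ± 20.9 normalized counts in Actr3 KO, 171 ± 24.4 in dKO and 222 ± 60.1 in Actr3 KO with CB, against 248 ± 31.7 in control (SD, n = 3 each). In dKO its log2 fold change was -0.57 ± 0.15 against Actr3 KO (limma adjusted p = 0.00226) and -0.53 ± 0.15 against control (0.00375). The part of Ttll3 in the reads of Arpc4 was not tested.

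Arpc1a and Arpc1b encode alternative forms of the beta-propeller subunit, which takes part in binding nucleation-promoting factors. Arpc1a had 2319, 2411 and 2244 normalized counts in Actr3 KO, 3966, 4180 and 3926 in dKO and 2994, 3157 and 3078 in Actr3 KO with CB, against 2891, 2979 and 3021 in control. Actr3 KO was lowest and dKO highest, and the libraries with CB overlapped control. The difference between Actr3 KO and control, -0.35 ± 0.05 (limma adjusted p = 2.08e-06), was the smallest of the 9. In Actr3 KO with CB the log2 difference from control was 0.05, with an interval of -0.05 to 0.16 (adjusted p = 0.351).

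Arpc1b, the paralog that is abundant in blood cells, had 5595, 5965 and 5529 normalized counts in Actr3 KO, 10751, 11371 and 10401 in dKO and 9877, 10957 and 10599 in Actr3 KO with CB, against 8608, 8450.1 and 9174 in control. Both dKO and Actr3 KO with CB stood wholly above control, and Actr3 KO wholly below it. The log2 fold change was -0.62 ± 0.06 in Actr3 KO against control (limma adjusted p = 3.28e-09), 0.93 ± 0.06 in dKO against Actr3 KO (adjusted p = 7.00e-12) and 0.88 ± 0.06 in Actr3 KO with CB against Actr3 KO (adjusted p = 1.73e-11). Arpc1b overlaps Pdap1 on the opposite strand over 1937 bases, and the sources used here do not state if reads were counted by strand. Pdap1 itself was lower in Actr3 KO (3256 ± 194 normalized counts) than in control (8045 ± 277; SD, n = 3 each; log2 fold change -1.31, adjusted p = 1.79e-14). Against Actr3 KO, Pdap1 was higher in dKO (1.11 ± 0.05, limma adjusted p = 1.95e-13) and in Actr3 KO with CB (0.78 ± 0.05, 4.78e-11). The processed pseudogene Gm5637 is 96.5% identical to Arpc1b over 1131 bases. The part of Pdap1 and the pseudogene in the reads of Arpc1b was not tested.

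Arpc3 encodes a small subunit that binds ARP3. It had 2602, 2971 and 2499 normalized counts in Actr3 KO, 6248, 6710.3 and 6148 in dKO and 3675, 4035 and 3469.7 in Actr3 KO with CB, against 5322, 5378 and 5786 in control. The groups did not overlap, and dKO stood above control. Apart from the edited gene, Arpc3 had the largest differences of the 9 in Actr3 KO against control (-1.03 ± 0.07, limma adjusted p = 1.45e-11) and in dKO against Actr3 KO (1.25 ± 0.07, adjusted p = 9.41e-13). In dKO against Actr3 KO that rank was lost to Arpc5 and Actr2 when chromosome medians were removed. The difference of Actr3 KO with CB from control was -0.56 ± 0.07 (adjusted p = 2.16e-07).

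Arpc5 and Arpc5l encode alternative forms of the subunit that tethers ARP2 to the rest of the complex. Arpc5 had 1433, 1448 and 1404 normalized counts in Actr3 KO, 2401, 2291 and 2351 in dKO and 1913, 1792 and 1845 in Actr3 KO with CB, against 2055, 2079.8 and 2227 in control. Arpc5l had 1609, 1587 and 1536 normalized counts in Actr3 KO, 2217, 2205 and 2074 in dKO and 1983, 1960.3 and 1970.3 in Actr3 KO with CB, against 2436, 2538 and 2306 in control. No 2 groups overlapped for either gene, and they differed in order: dKO was above control for Arpc5 and below control for Arpc5l. In Actr3 KO against control Arpc5 fell by 0.57 (SE 0.05) and Arpc5l by 0.62 (SE 0.05) on the log2 scale (limma adjusted p = 3.46e-09 and 1.00e-09). Arpc5l overlaps the ribosomal protein gene Rpl35 on the opposite strand over 277 bases. Rpl35 had 8159 ± 415 normalized counts in Actr3 KO and 14462 ± 1464 in control (SD, n = 3 each). Against Actr3 KO, Rpl35 was higher by 0.85 in dKO and by 0.56 in Actr3 KO with CB on the log2 scale. Its part in the reads of Arpc5l was not tested.

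Actr3b, the paralog of Actr3, was near 0 in all groups. It had 2 reads in all 3 libraries of Actr3 KO together, 2 in dKO, 2 in Actr3 KO with CB and 6 in control. In human cells its protein gives actin branches that disassemble sooner than those of ARP3. Fitted with no filter, the log2 difference of Actr3 KO from control was -0.58 ± 0.62 (limma adjusted p = 0.499). At this depth a change of Actr3b was not detectable, and its count in the lines with low Actr3 was no higher than in control.

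In dKO against Actr3 KO, 8 of the 9 subunits were called higher and 1, Actr3, lower. The background was 65.7% of tested genes called, 32.5% higher and 33.2% lower. Without Actr3, the other 8 subunits had a median log2 fold change of 0.75, against -0.01 over all tested genes, and the 8 spanned 0.34 (Arpc2) to 1.25 (Arpc3). This comparison and the one between Actr3 KO and control share the Actr3 KO libraries, so a gene that is low in those libraries is lower than control and also lower than dKO. The comparison of dKO with Actr3 KO is also between different lines. What the second edit adds and other differences between the lines cannot be told apart.

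In Actr3 KO with CB against Actr3 KO, 8 of the 9 subunits were called higher and 0 lower, with Arpc4 not called. The background was 65.5% of tested genes called, 32.7% higher and 32.9% lower. The median of the 8 subunits without Actr3 was 0.44, against -0.02 over all tested genes. Arpc1b (0.88 ± 0.06) and Arpc2 (0.67 ± 0.05) had the largest differences, and Actr3 itself was among those that rose. This comparison also shares the Actr3 KO libraries, and it is the 1 comparison made within a single line.

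Set against control directly, the subunits did not move as 1 group in dKO or in Actr3 KO with CB. In dKO against control, 5 were called higher and 4 lower, on a background of 67.1% of tested genes called, 32.0% higher and 35.1% lower. The higher ones were Arpc1a (0.44 ± 0.05), Arpc1b (0.31 ± 0.06), Arpc3 (0.21 ± 0.07), Actr2 (0.19 ± 0.05) and Arpc5 (0.15 ± 0.05). The lower ones were Actr3, Arpc4 (-0.41 ± 0.05), Arpc2 (-0.30 ± 0.05) and Arpc5l (-0.16 ± 0.05). All 9 had a limma adjusted p of 0.0160 or less. These small values are the least firm of the set: the calls of Arpc5 and Arpc5l were lost when single libraries were left out. For Arpc5 these were dKO replicate 1 (0.13, adjusted p = 0.0574), control replicate 1 (0.13, 0.0645) and control replicate 3 (0.13, 0.0590). For Arpc5l they were dKO replicate 3 (-0.13, adjusted p = 0.0593) and control replicate 3 (-0.13, 0.0584).

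In Actr3 KO with CB against control, which differ in the edit and in the drug, 1 subunit was called higher (Arpc1b, 0.26 ± 0.06, limma adjusted p = 0.000366) and 6 lower. The background was 65.1% of tested genes called, 33.0% higher and 32.0% lower. Arpc4 (-0.77 ± 0.05) and Arpc3 (-0.56 ± 0.07) were the lowest after Actr3, followed by Arpc5l (-0.30 ± 0.05), Actr2 (-0.24 ± 0.05) and Arpc5 (-0.20 ± 0.05). Arpc1a and Arpc2 were not called. The spread between the 8 unedited subunits was largest here, at 1.03 on the log2 scale, against 0.68 in Actr3 KO compared with control.

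**Figure D2:**
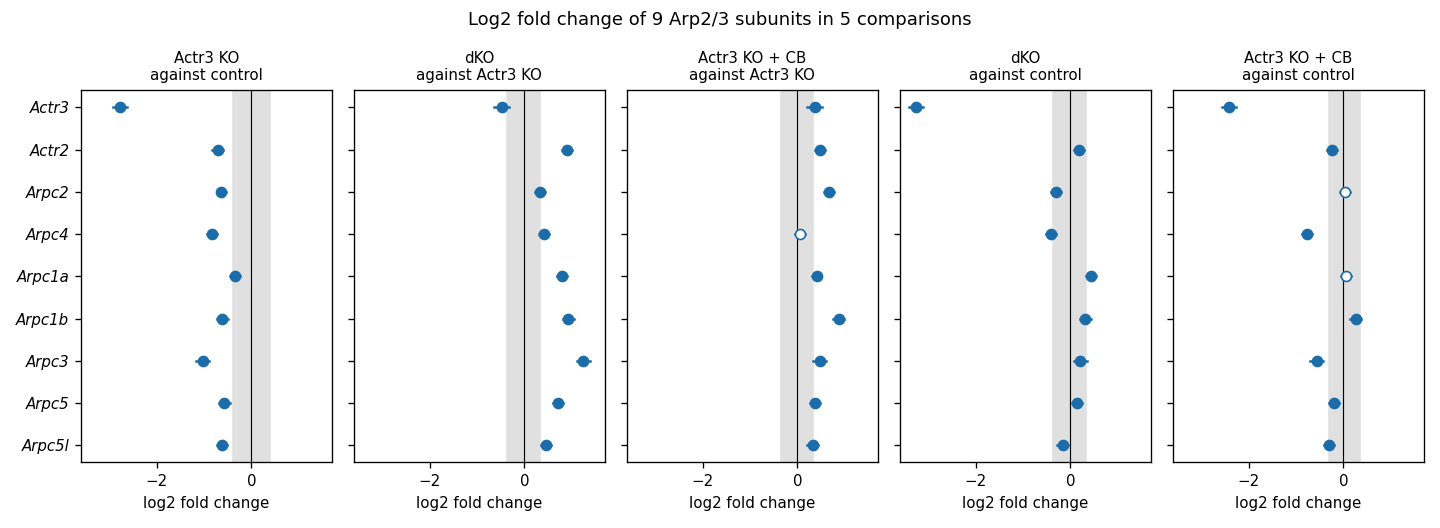
Log2 fold change of the 9 subunits (points, limma) with its 95% interval (lines) in the 5 comparisons, filled where the adjusted p was under 0.05. Grey bands run from the lower to the upper quartile of all 13939 tested genes. All 9 subunits lay left of 0 in Actr3 KO against control, 8 lay right of 0 in dKO against Actr3 KO, and both sides were occupied in the comparisons of dKO and of Actr3 KO with CB with control.

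The paralogs of a subunit did not keep 1 ratio. Arpc1b over Arpc1a, as a ratio of normalized counts, was 2.41, 2.47 and 2.46 in Actr3 KO, 2.71, 2.72 and 2.65 in dKO and 3.30, 3.47 and 3.44 in Actr3 KO with CB, against 2.98, 2.84 and 3.04 in control. No 2 of the groups overlapped, and Actr3 KO with CB was highest and Actr3 KO lowest. The log2 difference was -0.27 in Actr3 KO and -0.13 in dKO against control, and 0.21 in Actr3 KO with CB against control. It was 0.14 in dKO and 0.47 in Actr3 KO with CB against Actr3 KO. The part of the overlapping gene Pdap1 in this ratio was not tested. Each of the 5 comparisons gave p = 0.1 in a two-sided exact permutation test, the smallest that 3 against 3 libraries allow (0.143 after Benjamini-Hochberg adjustment over 10 tests), so none can pass 0.05.

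Arpc5l over Arpc5 was 1.12, 1.10 and 1.09 in Actr3 KO, 0.923, 0.962 and 0.882 in dKO and 1.04, 1.09 and 1.07 in Actr3 KO with CB, against 1.19, 1.22 and 1.04 in control. The dKO libraries were below all others, and the other 3 groups overlapped one another. The overlap of control with Actr3 KO and with Actr3 KO with CB came from the third control value, that of the library headed as another control line. Without that library the log2 difference from control was -0.12 in Actr3 KO, against -0.05 with it, and -0.17 in Actr3 KO with CB, against -0.10 with it (exact permutation p = 0.1 each, the smallest possible). Without control replicate 3 it was -0.005 in Actr3 KO and -0.06 in Actr3 KO with CB, so single control libraries decide these values. The log2 difference of dKO was -0.26 against Actr3 KO and -0.31 against control (exact permutation p = 0.1, the smallest possible, and 0.143 adjusted). With all libraries, the other 3 comparisons gave exact permutation p of 0.2 to 0.6. In recombinant human complexes, those with ARPC1B and ARPC5L are the more active forms, and the counts here are of mRNA and do not give the composition of the complexes. Actr2 over Actr3 had a mean of 4.78 in Actr3 KO, 12.5 in dKO and 5.18 in Actr3 KO with CB, against 1.14 in control, which describes the edit and is given with no test.

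**Figure D3:**
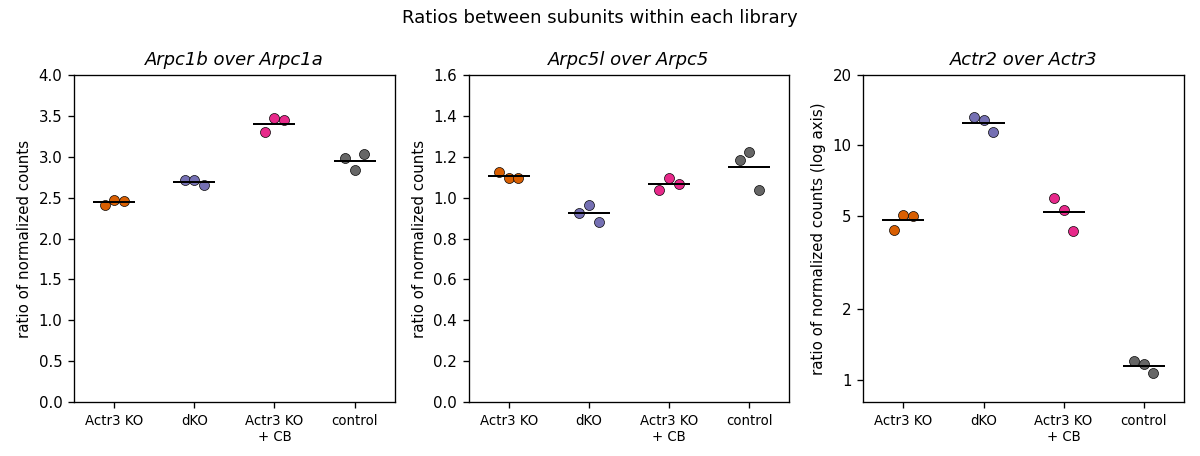
Ratios of normalized counts between subunits in each library (points) with the group mean (lines), for Actr3 KO, dKO, Actr3 KO with CB and control; the axis of Actr2 over Actr3 is logarithmic. Arpc1b over Arpc1a ran between 2.41 and 2.47 in Actr3 KO and between 3.30 and 3.47 with CB, and Arpc5l over Arpc5 was under 1 in dKO alone.

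Medians over whole chromosomes differed between the groups, and some subunits moved with theirs. The median log2 fold change of tested genes on chromosome 5, with Arpc1a, Arpc1b and Arpc3, was -0.24 in Actr3 KO against control and 0.39 in dKO against Actr3 KO. It was also 0.22 in Actr3 KO with CB against Actr3 KO, which are the same line. On chromosome 6, with Arpc4, it was -0.42 in Actr3 KO, -0.39 in dKO and -0.41 in Actr3 KO with CB, each against control. On chromosome 1, with Actr3, Arpc2 and Arpc5, it was 0.02 in Actr3 KO and -0.20 in dKO against control. The medians of chromosomes 2 and 11, with Arpc5l and Actr2, were between -0.07 and 0.10 in all comparisons.

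After the median of its chromosome was subtracted in each library, the counts of called subunits were the same in 4 of the 5 comparisons, with 9 lower in Actr3 KO against control. The values moved more than the counts. In Actr3 KO against control Arpc1a shrank to -0.11 (limma adjusted p = 0.0499), Arpc1b to -0.38, Arpc4 to -0.43 and Arpc3 to -0.79, while Actr2 (-0.74) and Arpc5l (-0.73) lay further from 0. In dKO against Actr3 KO, Arpc1a became 0.40 in place of 0.79, Arpc1b 0.53 in place of 0.93 and Actr3 -0.26 in place of -0.48. Arpc2 became 0.55 in place of 0.34. Arpc5 (0.93) and Actr2 (0.91) then exceeded Arpc3 (0.85). In Actr3 KO with CB against Actr3 KO, Arpc3 became 0.24 in place of 0.47 and Arpc1a 0.17 in place of 0.40. In dKO against control, 4 subunits were then higher and 2 lower. Before the subtraction, 32.0% of tested genes were called higher and 35.1% lower in that comparison. The calls of Arpc4 (-0.03, adjusted p = 0.601), Arpc2 (-0.09, 0.114) and Arpc3 (0.06, 0.446) were lost. In Actr3 KO with CB, the low value of Arpc4 against control became -0.35 and remained called. Chromosome number was not measured, and its part in these values was not tested.

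**Figure D4:**
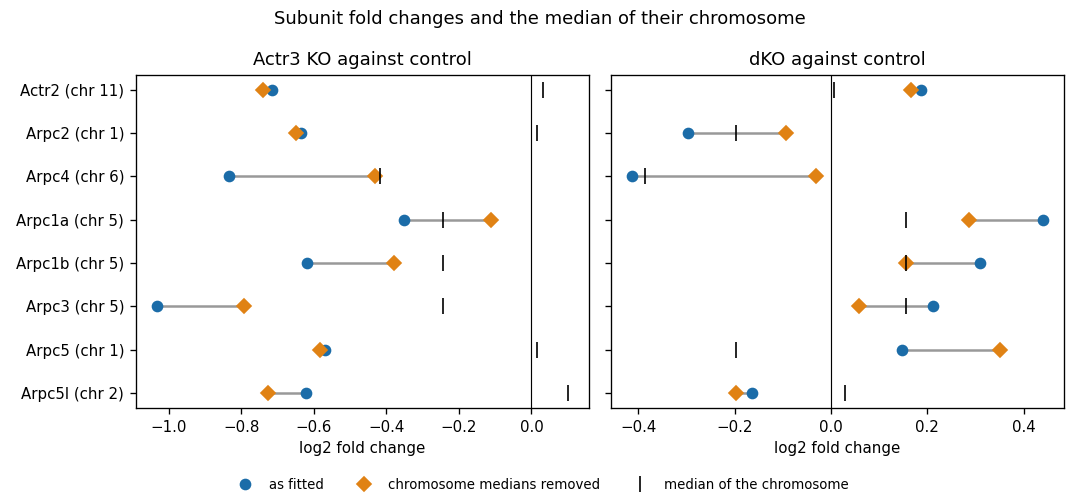
Log2 fold change of the 8 unedited subunits in Actr3 KO against control and in dKO against control, as fitted (circles) and after chromosome medians were removed (diamonds), with the median of all tested genes of the chromosome (ticks). Arpc4 sat beside the median of chromosome 6 in dKO (-0.41 and -0.39), while Actr2, on a chromosome with a median of 0.03, stayed near -0.7 in Actr3 KO.

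The profiles of the subunits over the 12 libraries were compared by the root-mean-square distance of their centred log2 values. Actr2 and Arpc5 were the closest pair of the 9, at 0.0910 log2 units, and Actr3 stood at 1.03 to 1.34 from each of the others. Against the mean profile of the 8 unedited subunits, Arpc5 ranked 23, Actr2 84, Arpc5l 210 and Arpc1a 543 among all tested genes. Arpc1b ranked 1111, Arpc2 1554, Arpc4 1753 and Arpc3 1822. Each of the 8 is part of that mean, so these ranks favour the subunits over other genes. The nearest genes outside the complex were Tmod3 (0.0404), Pitpnb (0.0418), Rpl13 (0.0440), Rab1a (0.0452) and Tyms (0.0454). Tmod3 encodes a tropomodulin that caps the pointed ends of actin filaments. It had 2459 ± 71.6 normalized counts in Actr3 KO, 3893 ± 25.1 in dKO and 3378 ± 98.7 in Actr3 KO with CB, against 3747 ± 38.1 in control (SD, n = 3 each).

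Genes near to Actr3 in profile were further off: Lsp1 (0.284), Bex4 (0.345), Wnt10a (0.359) and Fabp5 (0.387). Lsp1 encodes an actin-binding protein of leukocytes and had 3.65 ± 0.602 normalized counts in Actr3 KO, 2.85 ± 1.04 in dKO and 7.04 ± 2.06 in Actr3 KO with CB, against 30.7 ± 4.00 in control (SD, n = 3 each). Fabp5, a fatty acid-binding protein, averaged 73.7, 62.8 and 142 in the same order, against 385 in control.

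Genes of proteins that work with the complex were counted in the same way. The list of 16 partners covered proteins that bind, stabilise, debranch or inhibit the complex, and the filament-capping subunits Capza1, Capza2 and Capzb. Of the 16, 14 were tested. In Actr3 KO against control 6 were lower and 4 higher, against 35.4% and 34.4% of all tested genes, with a median log2 fold change of -0.26 (0.00 over all). The filament-capping subunits Capza2 (-1.24 ± 0.08) and Capza1 (-0.65 ± 0.06) fell, as did the coronins Coro1c (-0.84 ± 0.05) and Coro2a (-0.73 ± 0.06), each with a limma adjusted p of 2.33e-09 or less. Capzb (-0.44 ± 0.06, limma adjusted p = 1.85e-06) and the coronin Coro2b (-0.52 ± 0.12, 0.000745) were the other lower ones. The 6 lower partners were thus all capping subunits or coronins. The 4 higher ones were another coronin, Coro1b (0.52 ± 0.06), and Pick1 (0.38 ± 0.07), Nckipsd (0.33 ± 0.09) and Cttn (0.12 ± 0.05). Each had a limma adjusted p of 0.0280 or less. In dKO against Actr3 KO 10 were higher and 2 lower, against 32.5% and 33.2% of all tested genes, with a median of 0.30 (-0.01 over all). Arpin, an inhibitor of the complex, rose by 0.74 ± 0.07, and Gmfb, which removes branches, by 0.54 ± 0.06. Coro1c also rose (0.37 ± 0.05). Gmfg, the paralog of Gmfb, averaged 1.54 normalized counts (5 reads in all) in dKO, against 33.0 (100 reads) in Actr3 KO.

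Of 8 nucleation-promoting factors, 6 were tested, and in Actr3 KO against control 3 were lower and 3 higher, on the background of 35.4% and 34.4%. Wasl, which encodes N-WASP, fell by 0.81 on the log2 scale (2688 ± 66.7 normalized counts in Actr3 KO against 4702 ± 126 in control). Washc1, of the WASH complex on endosomes, rose by 0.69 (2574 ± 76.4 against 1591 ± 17.5; SD, n = 3 each). In dKO against Actr3 KO 3 of the 6 were higher and 0 lower by limma (32.5% and 33.2% of all tested genes), among them Wasl (0.49 ± 0.05) and the WAVE gene Wasf1 (0.70 ± 0.07). Of 8 actin-related proteins outside the complex, 7 were tested, and 4 were lower and 1 higher in Actr3 KO against control, on the same background of 35.4% and 34.4%. Actr1a, the filament subunit of dynactin, fell by 0.70 and Actl6a, of chromatin remodelling complexes, by 0.53. In dKO against Actr3 KO 5 of these 7 were higher and 0 lower by limma (32.5% and 33.2% of all tested genes), with Actr10 (0.41 ± 0.05) and Actr1a (0.42 ± 0.05) among them.

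The epithelial identity of the line was read from fixed markers. Of 14 collecting duct markers, 11 to 13 per group averaged at least 10 normalized counts, Krt8, Cdh1 and Cdh16 among them, but the water channel Aqp2 was at or near 0 in all groups (0 to 0.620). Aqp3, of the same list, was also low, with group means of 4.03 to 13.2, and Scnn1a had group means of 47.2 to 70.7. The collecting duct markers summed to 80914 to 97568 in the libraries of the edited lines, against 118525 to 127136 in control. The list did not move as 1: Krt19 averaged 4343 in Actr3 KO, 6381 in dKO and 13623 in Actr3 KO with CB, against 14835 in control. Cdh16 averaged 35475, 17788 and 24985 in the same groups, against 18297 in control. Gata3 averaged 54.0, 70.5 and 65.9, against 18.3, and Slc14a2 21.6, 7.89 and 5.44, against 190.3. The proximal tubule gene Slc34a1 was at 0 everywhere, while Lrp2, of the same list, averaged 5905 to 15235. The leukocyte gene Cd68 averaged 161 ± 6.05 in Actr3 KO, 139 ± 11.7 in dKO and 332 ± 23.5 in Actr3 KO with CB, against 161 ± 16.0 in control (SD, n = 3 each). All 3 leukocyte markers summed to no more than 169 in Actr3 KO (at least 158), 156 in dKO (at least 135) and 364 in Actr3 KO with CB (at least 314), against 212 in control (at least 179), with Ptprc at 13.0 or less in the edited groups and 26.3 in control. The thick ascending limb markers summed to 385 or more in Actr3 KO (up to 393), to 108 or more in dKO (up to 122) and to 94.4 or more in Actr3 KO with CB (up to 160.05), against 350.3 or more in control (up to 513). The fibroblast markers summed to at most 183 and the endothelial ones to at most 24.7 in any library. The part of these differences in the values of the subunits was not tested.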

How the data were processed

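Poly(A) RNA of 12 libraries (4 groups of 3) was sequenced. The deposited values are a signal: the steps between them show that the authors divided each count by a size factor of its library. Every value was a whole multiple of 1 step per library (100% of values within 0.01 reads), which gave back the reads, and the steps equal DESeq2 size factors. They are not corrected for length. Per the submitters' processing notes, the tools were DESeq2 2.11.40.7, featureCounts 2.0.1, HISAT2 2.2.1 and fastp 0.23.2, with mm10/GRCm38. Strand handling is not stated. IDs were named from RefSeq (25275) and GENCODE (18), and 1886 have no name.

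The members and lists were chosen with earlier results of these data known. Libraries were grouped by title. One control column is headed as line 2, replicate 1, which matches no title; it entered as a control without a replicate number. Pairs of replicates exceeded counting noise, with a chi-square of 4.48 to 16.9 per degree of freedom. Genes reaching 10 in 3 or more libraries (13939) were transformed to log2(value + 1). They were tested two-sided with limma 3.58.1 (trend, 1 fit over the 12 libraries, R 4.3.3), and a Benjamini-Hochberg adjusted p under 0.05 made a call. The fold changes given share that scale and understate changes of low genes. Named genes were the 10 members, the called list members with the smallest adjusted p in the first 2 comparisons (up to 4 partners and 2 of each other list), the 5 genes nearest in profile to the subunits and to Actr3 (1 near Actr3 is not reported here), and Ift88. The other partners called in Actr3 KO against control were named as well. Overlapping genes and near copies named beside a member were taken from the annotation and from blastn 2.17.0 of GENCODE transcripts. The steps were tested on simulated data. Alternatives changed the pseudocount (0.5, 5), the filter (none, or a mean over 50), the scaling (TMM, quantile, chromosome medians removed), the tool (DESeq2 1.42.0 or edgeR 4.0.16 on reads), the libraries fitted (the groups compared, or 1 left out), the replicate block and the threshold (2-fold). Ratios used scipy 1.17.1.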

Additional observations from a re-analysis of the deposited data

How the results depend on the processing

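Of 765 values of the 9 tested subunits under the alternatives, 753 kept their direction and their side of the threshold, 10 lost the call and 2 reversed. The reversed ones are Arpc2 in Actr3 KO with CB against control, which was not called in the first place: -0.0071 with quantile normalization (limma adjusted p = 0.901) and -0.034 with chromosome medians removed (0.574). The 10 lost calls all lie in dKO against control. They are those printed above for single libraries and chromosome medians, and with quantile normalization Arpc2 (-0.08, adjusted p = 0.118) and Arpc5l (-0.10, 0.0805); the cause was not tested. With a threshold of at least 2-fold, which by construction calls fewer genes, Actr3 KO against control had 1691 genes and 2 subunits (Actr3 and Arpc3) called. The same threshold left 1325 genes and 1 subunit in dKO against Actr3 KO, 1302 genes and 0 subunits in Actr3 KO with CB against Actr3 KO, 1736 and 1 in dKO against control, and 1470 and 1 in Actr3 KO with CB against control.

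The replicate numbers did not pair the libraries: with each gene's group mean subtracted, same-numbered libraries of different groups correlated at -0.04 to 0.07. With the replicate number as a block, on the 11 numbered libraries, 9080 genes passed in Actr3 KO against control, 9158 in dKO against Actr3 KO, 9118 in Actr3 KO with CB against Actr3 KO, 8749 in dKO against control and 8378 in Actr3 KO with CB against control, against 9724, 9164, 9136, 9350 and 9071 without it. The counts without the block are from all 12 libraries, so the differences mix the block with the control library left out. The subunits called under the block were 9, 9, 8, 9 and 7. Without the control library that has no number, the subunits called were 9, 9 and 7 in the comparisons of Actr3 KO, dKO and Actr3 KO with CB with control.

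Limits: each edited genotype is 1 line, 1 of the 3 control libraries is headed as another control line, and 3 libraries a group allow no exact p under 0.1 for a ratio. Depth does not limit the 9 tested subunits, which had at least 2765 reads a group, but it does limit Actr3b.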
